A study of Mus musculus with 2 samples.

Results

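The microRNA genes described here are Mir153, Mir7b, Mir7-1, Mir7-2, Mir128-1 and Mir128-2, which make miR-153, miR-7 and miR-128, microRNAs known for their high level in neurons. They were taken by gene name, 6 of the 1973 microRNA genes that each table of counts lists, by a rule that uses names and no threshold on a value. The counts come from small RNA sequencing of forebrain dissected from healthy B6NCrl mouse embryos, male and female pooled, at embryonic day 13.5, when forebrain progenitors are making neurons. The study has 1 group of 2 libraries, named biological replicates 2 and 1, so it holds no contrast of treatments, genotypes or ages. The labels give the libraries separate biosamples and 1 shared donor entry, and do not say which embryos went into each. The p-values below thus only compare these 2 libraries, whose differences may be technical. Those of the exact binomial and Fisher's tests set a difference against counting error alone.

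A microRNA is cut from a hairpin precursor whose 5p and 3p arms can each give a short RNA. Usually 1 arm, the guide, is kept in an Argonaute protein and pairs with messenger RNAs through its seed, bases 2 to 8. miR-128 is enriched in brain and restrains neuronal excitability in mice, where it comes from Mir128-1 in the R3hdm1 gene and Mir128-2 in Arpp21, a gene of forebrain neurons. miR-153 lies in Ptprn2, which encodes a protein of dense-core secretory vesicles, and targets transcripts of the vesicle release machinery. miR-7 is enriched in neurons and in endocrine cells such as those of the pancreatic islets, and the circular RNA Cdr1as binds it in mammalian brain.

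The guide arms are shown first because their sequence sets which copies can be told apart. They are from RefSeq (GRCm38.p6), written 5′ to 3′, with the seed in capitals.
miR-128-3p: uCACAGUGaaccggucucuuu
miR-153-3p: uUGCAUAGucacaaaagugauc
miR-7a-5p: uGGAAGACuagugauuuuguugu
miR-7b-5p: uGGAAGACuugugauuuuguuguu
The guides fell into 3 seed groups. In the RefSeq set searched, no other gene had an arm with any of these seeds at bases 2 to 8. That set left out 1 chromosome, so a match there would have been missed. miR-128-3p has the same 21 bases from both Mir128 genes, and miR-7a-5p the same 23 bases from Mir7-1 and Mir7-2. miR-7b-5p differs from miR-7a-5p by A10U, counted from 1 at the 5′ end with the miR-7a base first, and by 1 added base at its 3′ end, so all 3 Mir7 genes share a seed. miR-153-3p and both arms of Mir7b each matched a single annotated gene.

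The opposite arms are what separates the copies. In the Mir128 5p arms the capitals mark the seed, which both share, and in the Mir7 3p arms the 6 positions at which the 3p arms are not all alike.
miR-128-1-5p: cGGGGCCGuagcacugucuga
miR-128-2-5p: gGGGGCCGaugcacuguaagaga
miR-7a-1-3p: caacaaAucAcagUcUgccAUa
miR-7a-2-3p: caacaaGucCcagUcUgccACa
miR-7b-3p: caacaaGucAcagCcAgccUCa
From miR-7a-1-3p to miR-7a-2-3p there are 3 changes in 22 bases, A7G, A10C and U21C. Between miR-7a-2-3p and miR-7b-3p there are 4, C10A, U14C, U16A and A20U.

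The hairpins of the copied genes are shown with their longest unbroken shared stretch in capitals.
Mir128-1: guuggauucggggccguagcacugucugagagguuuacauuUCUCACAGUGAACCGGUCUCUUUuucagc
Mir128-2: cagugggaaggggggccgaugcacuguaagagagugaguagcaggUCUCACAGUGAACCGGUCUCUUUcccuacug
Mir7-1: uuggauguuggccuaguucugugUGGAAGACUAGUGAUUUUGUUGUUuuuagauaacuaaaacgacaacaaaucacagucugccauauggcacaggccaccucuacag
Mir7-2: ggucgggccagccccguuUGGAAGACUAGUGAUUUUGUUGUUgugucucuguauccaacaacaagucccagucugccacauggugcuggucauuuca
The Mir128 hairpins of 70 and 76 bases share 23 bases in a row, which hold the whole guide. The Mir7-1 and Mir7-2 hairpins of 108 and 97 bases share 24, again with the whole guide inside. Mir7b, with 111 bases, shares at most 14 in a row with either. A guide read of Mir128-1, Mir128-2, Mir7-1 or Mir7-2 thus has at least 2 exact origins, and the tables keep reads that map to several places in a summary row and not under a gene. Whether guide reads of these 4 genes entered their counts, and how the counts divide between the arms, cannot be read from the tables. Mir153 and Mir7b do not carry that limit as far as annotated genes go.

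All the genes but Mir7b and Mir7-2 lie inside a protein-coding gene, on its strand (GENCODE M21, GRCm38). Mir128-1 (ENSMUSG00000065520, chromosome 1, 128202361 to 128202430, plus strand) is in intron 19 of 26 of R3hdm1, 5263 bases after the upstream exon. Mir128-2 (ENSMUSG00000065441, chromosome 9, 112118636 to 112118711, minus strand) is in intron 19 of 20 of Arpp21, only 471 bases after the upstream exon of an intron of 51873 bases. Mir153 (ENSMUSG00000065538, chromosome 12, 117250817 to 117250885, plus strand) is in intron 19 of 22 of Ptprn2 and is also overlapped by Gm5441, an antisense transcript on the other strand. Mir7-1 (ENSMUSG00000065434, chromosome 13, 58392779 to 58392886, minus strand) is in the last of 15 introns of Hnrnpk, a widely expressed RNA-binding protein gene, and that intron has only 779 bases. Mir7-2 (ENSMUSG00000065609, chromosome 7, 78888277 to 78888373, plus strand) lies outside annotated genes, 7481 bases from Aen. Mir7b (ENSMUSG00000065491, chromosome 17, 56242988 to 56243098, plus strand) lies outside them too, 13712 bases from Fem1a. No other annotated microRNA gene lies within 50 kb of these genes or inside their hosts, so none belongs to a microRNA cluster by that measure. The tables list microRNA genes only, and 0 of the 4 host genes have a row, so transcription of a host could not be set beside its microRNA.

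The libraries held 10452225 reads in replicate 2 and 10631040 in replicate 1, of which 3908953 and 4117752 were counted on microRNA genes on the gene's own strand. Multi-mapped reads made up 43.9% of replicate 2 and 40.6% of replicate 1. Levels in CPM state how many of every 1000000 gene counts a gene held, so a single count, 1 read, stood for 0.256 CPM in replicate 2 against 0.243 in replicate 1. A read covers a whole short RNA, so counts were not divided by hairpin length. How evenly different microRNAs were captured was not measured, and levels of different genes compare reads, not molecules. Gene lists for other cells put the tissue in context. Neural progenitor genes held 1.37% of gene counts in replicate 2 and 1.47% in replicate 1, led by Mir92b. Neuron genes held 0.776% and 1.03%, led by Mir137, Mir138-1 and Mir132. Most of each share was 1 gene: Mir92b stood at 12964 CPM in replicate 2 and 13897 CPM in replicate 1, and Mir137 at 6750 and 8954 CPM. The genes of miR-124, the defining neuronal microRNA, have copies too and held only 3 to 20 counts each. Summed shares in replicate 2 and replicate 1 were 1.88% and 1.60% for the endothelial list, 0.712% and 1.00% for choroid plexus and multiciliated cells, 0.715% and 0.669% for mesenchyme, 0.160% and 0.168% for epithelium, and 0.0743% and 0.0813% for oligodendrocytes. They were 0.0343% and 0.0484% for endocrine cells and pancreas, 0.0293% and 0.0446% for the Hox list, 0.0283% and 0.0280% for leukocytes, 0.00862% and 0.0159% for erythroid cells, 0.00527% and 0.00593% for liver, and 0.00437% and 0.00556% for striated muscle.

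All 6 genes were detected (the floor was 10 counts per library, and the lowest value was 1105), and together they held 21090 counts in replicate 2 and 26361 in replicate 1. That is 0.540% of gene counts (95% Wilson interval 0.532 to 0.547) in replicate 2 and 0.640% (0.633 to 0.648) in replicate 1, a mean of 0.590% ± 0.0712 (SD, n = 2 libraries). Their median level, 719 CPM, compares with 137 CPM over the 377 detected genes. In bulk tissue values such as these, fewer cells that make a microRNA and less of it per cell cannot be told apart.

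Mir153 stood highest, with 7749 counts in replicate 2 and 8530 in replicate 1. These are 1982 and 2072 CPM, a mean of 2027 ± 63.0 CPM (SD, n = 2), and it ranked 68th among all genes in both libraries. In these CPM, on library totals, its spread was the smallest of the 6, at 3.11% of the mean. The gap to the next gene was larger than that spread, since its lower value lay above both values of Mir7b. With TMM sizes Mir7b was slightly the more even, at a log2 ratio of -0.041 against 0.045 for Mir153.

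Mir7b followed with 5674 counts in replicate 2 and 6630 in replicate 1, or 1452 and 1610 CPM (mean 1531 ± 112, SD, n = 2). Among the miR-7 genes it was highest in both libraries and did not overlap the others. It held 62.6% of the Mir7 counts in replicate 2 (95% Clopper-Pearson interval 61.6 to 63.6) and 57.9% in replicate 1 (56.9 to 58.8). Mir7b is also the Mir7 gene whose guide matched no other annotated gene, and the part of uncounted shared reads in its lead over Mir7-1 and Mir7-2 was not tested.

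The copied genes stood lower. Mir128-1 had 2435 counts in replicate 2 and 3578 in replicate 1, or 623 and 869 CPM (mean 746 ± 174, SD, n = 2). Mir7-1 had 2282 and 3296 counts, or 584 CPM in replicate 2 and 800.4 CPM in replicate 1 (mean 692 ± 153). Mir128-2 had 1845 and 2794 counts, or 472 CPM in replicate 2 and 679 CPM in replicate 1 (mean 575 ± 146). The ranges of these 3 genes overlap from one to the next, so values from different libraries do not separate them. Within each library their order was the same, with Mir128-1 over Mir128-2 at 1.32 times in replicate 2 and 1.28 times in replicate 1. Mir7-2 was lowest with 1105 counts in replicate 2 and 1533 in replicate 1, or 283 and 372 CPM (mean 327 ± 63.4). It lay below Mir128-2 without overlap, and Mir153 exceeded it 6.19-fold in mean CPM. Reads on the strand opposite to these genes numbered 0 in replicate 2 and 1, at Mir128-2, in replicate 1.

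**Figure D1:**
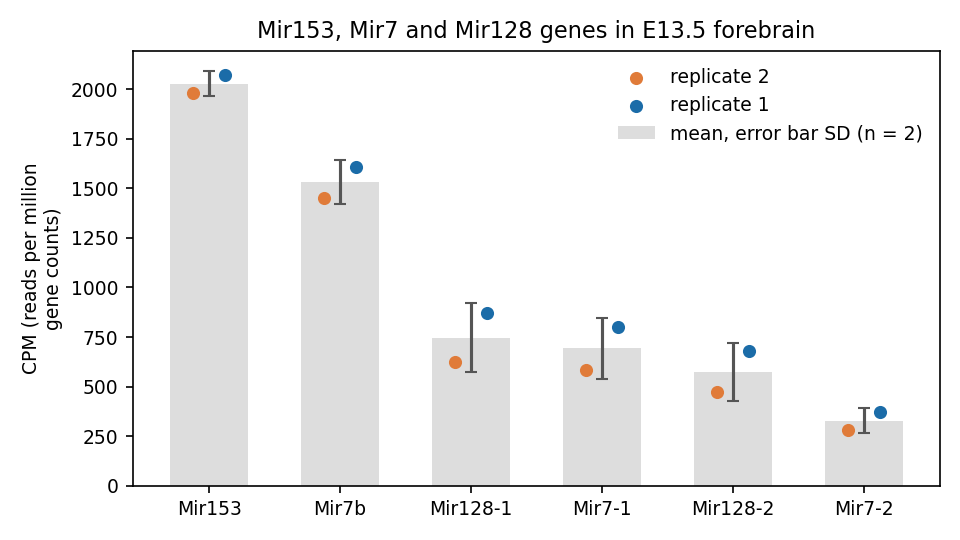
CPM of each gene, with points for replicates 2 and 1, bars for their mean and error bars for the SD (n = 2). Mir153 and Mir7b stand apart from the rest, Mir128-1, Mir7-1 and Mir128-2 overlap, and Mir7-2 is lowest, at 283 and 372 CPM.

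The libraries are 2 draws of 1 group, and setting them against each other shows how each of these genes differed between them. The 4 copied genes were lower in replicate 2, while Mir153 and Mir7b, whose guides are unique, stayed close to even. On the log2 scale, after TMM normalization, the ratio of replicate 2 over replicate 1 was -0.37 for Mir128-1 (exact 95% interval -0.45 to -0.30) and -0.41 for Mir128-2 (-0.50 to -0.33). It was -0.35 for Mir7-1 (-0.42 to -0.27) and -0.29 for Mir7-2 (-0.40 to -0.18). For Mir7b it was -0.04 (-0.09 to 0.01), and for Mir153 it was 0.05 (0.00069 to 0.090). With library totals in place of TMM every ratio moves by -0.11, so Mir153 then lies at -0.06, on the other side of 0, and Mir7b at -0.15, lower as before.

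A two-sided exact binomial test on the counts, with Benjamini-Hochberg adjustment over all 475 genes tested, was passed by 4 of the 6 genes. The 4 were all lower in replicate 2, where 38.9% of all genes tested passed in either direction and 20.8% passed as lower. Many of the genes tested had few counts, which makes passing harder. Of the 293 that reached 50 counts in both replicates, 58.4% passed in either direction, so 4 of 6 is not far from the share among well-counted genes. The part of that 58.4% that was lower is not given here. The adjusted p was 5.19e-22 for Mir128-1, 3.87e-21 for Mir128-2, 5.76e-18 for Mir7-1 and 1.90e-06 for Mir7-2 in this exact test. None of the 6 passed with an absolute log2 ratio over 1 as well (0 of 6, the largest being -0.41), as 3.37% of all genes tested did. Mir153 (exact adjusted p = 0.104) and Mir7b (exact adjusted p = 0.227) did not pass. The median log2 ratio of the 6 genes was -0.32, against 0.02 over all genes tested. This test knows counting error only: an edgeR exact test with the dispersion estimated from the same libraries (a biological coefficient of variation of 14.3%) called 0 of the 6 genes, with 0 at an unadjusted p under 0.05 and the lowest unadjusted p at 0.162 for Mir128-2. It called 1 gene of 475. Its dispersion takes in the differences between the same 2 libraries that it compares, so few calls are built into it. It therefore cannot say whether the shift of the copied genes exceeds the spread between replicates. By the exact binomial test that shift is beyond counting error.

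**Figure D2:**
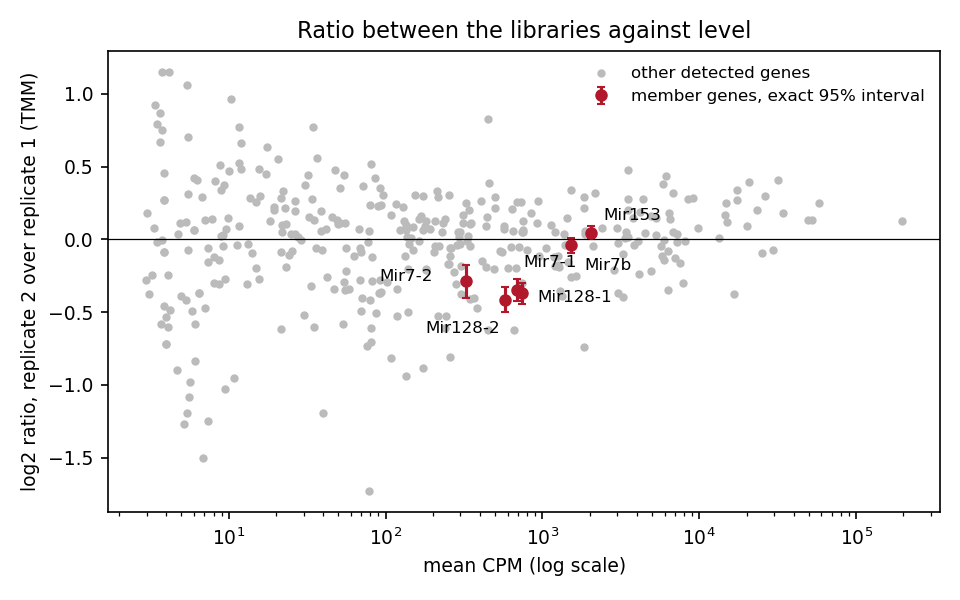
Log2 ratio of replicate 2 over replicate 1 after TMM (vertical) against mean CPM on a log scale (horizontal) for the detected genes, with the 6 genes in red and their exact 95% intervals. Mir128-1, Mir128-2, Mir7-1 and Mir7-2 lie together between -0.29 and -0.41, and Mir153 and Mir7b lie near 0.

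Gene lists of neurons and of other cells were set beside these ratios. Of the 11 tested genes of the neuron list, 3 (against 20.8% of all genes tested) were lower in replicate 2 past the exact binomial test and 0 higher, a share near that of all genes: Mir137 at a log2 ratio of -0.30, Mir138-1 at -0.62 and Mir138-2 at -0.61. The other 8 did not pass and ran from -0.27 (Mir218-2) to 0.11 (Mir124a-2), with Mir132 at -0.04, and the list's median was -0.03. The neural progenitor genes Mir92b, Mir9-3 and Mir9-2 did not pass, at 0.01, 0.05 and 0.04. In the choroid plexus and multiciliated list 5 of 8 genes were lower and 0 higher, with none at 0 counts, and its share of gene counts was 0.712% in replicate 2 and 1.00% in replicate 1. In the endocrine list 3 of 4 were lower and 0 higher, among them the islet and pituitary microRNA gene Mir375 at -0.30, with 936 counts in replicate 2 and 1313 in replicate 1. Other lists went the other way or both ways: the endothelial gene Mir126a was higher at 0.34, and of 6 mesenchymal genes 2 were higher, led by Mir143 at 0.47, and 1 lower, Mir214 at -0.81. Of the 5 Hox genes tested 2 were lower, Mir10a at -0.52 and Mir10b at -0.53. Of 3 erythroid genes 1 was higher and 1 lower, of 3 leukocyte genes 1 was higher, and 1 was lower of 7 epithelial and 1 of 4 striated muscle genes. None of the 3 oligodendrocyte genes and the 1 liver gene passed. The part of these cells, or of the larger share of multi-mapped reads in replicate 2, in the lower counts of the copied genes was not tested.

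Within each pair of copies the proportions differed little between the libraries. Mir128-2 made up 43.1% of the Mir128 counts in replicate 2 (95% Clopper-Pearson interval 41.6 to 44.6) and 43.8% in replicate 1 (42.6 to 45.1), a difference of -0.741 percentage points that did not pass a two-sided Fisher's exact test (adjusted p = 0.461). Mir128-1 was thus the higher copy, by 1.30 ± 0.0277 times (SD, n = 2), and in neither library did the interval of Mir128-2 reach an even share. Mir7-2 made up 32.6% of Mir7-1 and Mir7-2 together in replicate 2 (31.0 to 34.2) and 31.7% in replicate 1 (30.4 to 33.1), and this pair, added after its counts were seen, did not pass either (Fisher's exact adjusted p = 0.461). Mir7-1 exceeded Mir7-2 by 2.11 ± 0.0600 times. Missing the threshold does not show that the proportions are equal.

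Mir7b was the highest of the miR-7 genes in both libraries, and its share of their counts differed between them. The share was higher in replicate 2 by 4.76 percentage points (Fisher's exact adjusted p = 2.33e-11), the share of Mir7-1 differed by -3.58 points, at 25.2% in replicate 2 and 28.8% in replicate 1 (Fisher's exact adjusted p = 2.65e-08), and that of Mir7-2 by -1.18 points, at 12.2% in replicate 2 and 13.4% in replicate 1 (Fisher's exact adjusted p = 0.0207). Mir7b exceeded Mir7-1 by 2.49 times in replicate 2 and 2.01 times in replicate 1. These are 5 tests of read counts between 2 libraries, adjusted together, and cover counting error only.

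**Figure D3:**
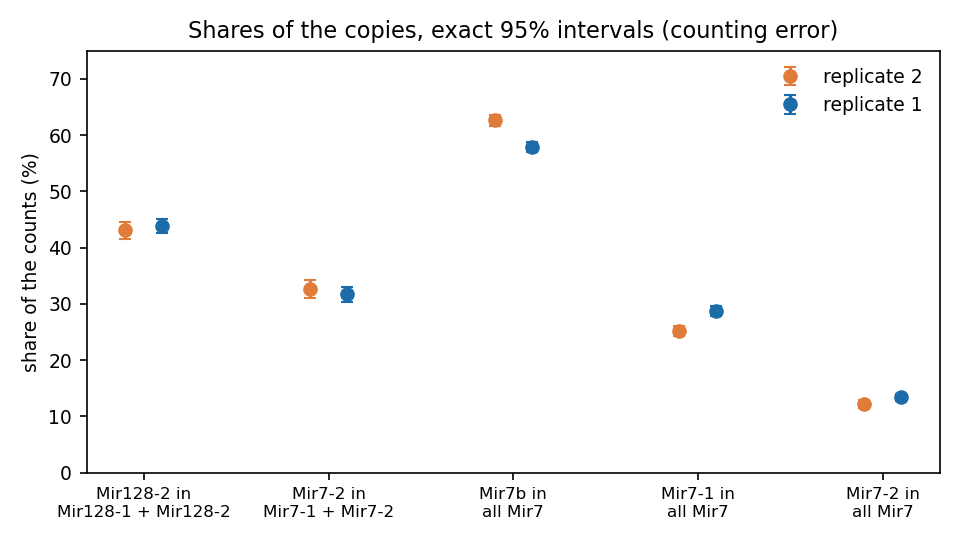
Share of the counts (%) held by 1 copy within its pair or within the Mir7 genes, for replicates 2 and 1, with exact 95% intervals of counting error. Mir128-2 and Mir7-2 keep their place within their pairs, and Mir7b holds 62.6% in replicate 2 and 57.9% in replicate 1.

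Other microRNAs with copies give a frame for these pairs, chosen after the values above had been seen. The RefSeq set searched, which left out 1 chromosome, gave 285 detected genes with 2 arms. Of these, 35 share exactly 1 arm with another hairpin of the set, as Mir128-1, Mir128-2, Mir7-1 and Mir7-2 do. Another 245, among them Mir153 and Mir7b, share neither. Log2 ratios of replicate 2 over replicate 1 had a median of 0.07 among the 35 genes (quartiles -0.28 and 0.24) and 0.03 among the 245, and all 4 copied genes lie below the lower quartile of their own class. Those 4 are among the 35 genes that set this quartile, and Mir7-2, at -0.288, lies only just below its value of -0.281. A total of 12 detected pairs share 1 arm with each other and with no further hairpin of that set. In the 10 other pairs the higher copy exceeded the lower 1.19-fold to 91.2-fold in mean CPM, with a median of 4.19-fold, and the Mir128 pair (1.30-fold) and the Mir7-1 and Mir7-2 pair (2.11-fold) were among the more even. The log2 ratios of the copies differed by 0.04 within the Mir128 pair and by 0.06 between Mir7-1 and Mir7-2, where the 10 other pairs differed by 0.02 to 0.65 with a median of 0.15. Mir138-1 and Mir138-2, another neuronal pair, differed by only 0.02 and lay lowest of all, and Mir181a-1 and Mir181a-2 differed most.

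**Figure D4:**
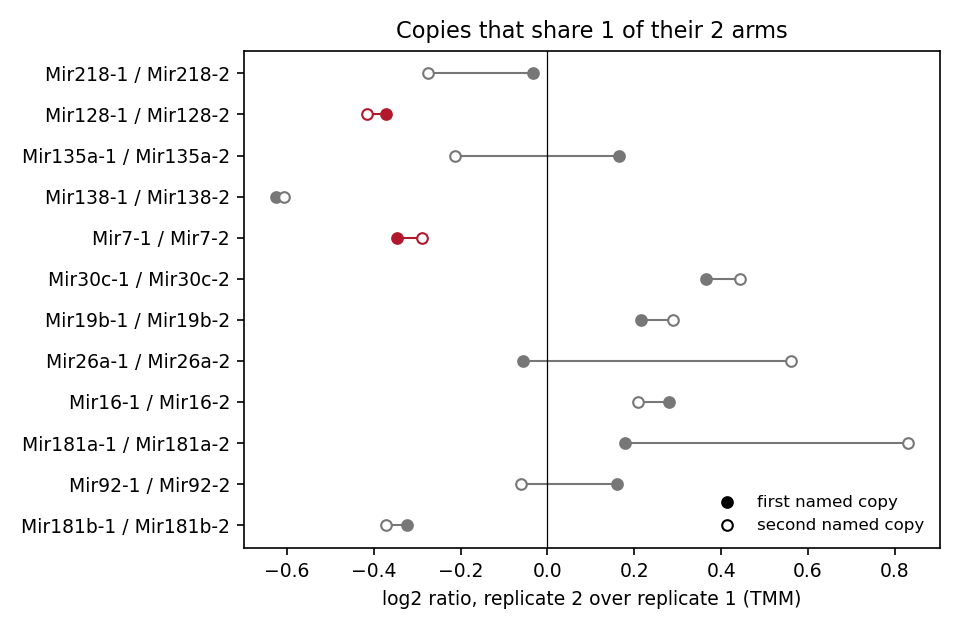
Log2 ratio of replicate 2 over replicate 1 after TMM for the 12 pairs of detected genes that share 1 of their 2 arms with each other alone, ordered by how even the copies are, with a filled point for the first named copy and an open point for the second. The Mir128 and Mir7 pairs, in red, lie to the left of 0 with their copies 0.04 and 0.06 apart.

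Some genes that are no copies come near these guides in sequence. The following arms are shown because they overlap the seeds above, with the shared bases in capitals.
miR-448-3p: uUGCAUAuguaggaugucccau
miR-27a-3p: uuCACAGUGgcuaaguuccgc
miR-27b-3p: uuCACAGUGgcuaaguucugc
miR-448-3p has bases 2 to 7 of miR-153-3p. Mir448, its gene, listed here with choroid plexus, had 452 counts in replicate 2 and 948 in replicate 1 (mean 173 ± 81.0 CPM) and was lower in replicate 2 at a log2 ratio of -0.88 (exact adjusted p = 2.57e-27). The difference between Mir448 and Mir153 was not tested. miR-27a-3p and miR-27b-3p hold the miR-128 seed placed 1 base further from the 5′ end. Mir27b had 2028 counts in replicate 2 and 1981 in replicate 1 (mean 499.9 ± 26.7 CPM), and Mir27a 371 and 314 (mean 85.6 ± 13.2 CPM). Both were higher in replicate 2, at log2 ratios of 0.22 and 0.42 (exact adjusted p = 9.03e-06 and 5.12e-04), where both Mir128 genes were lower.

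With 2 libraries, likeness of pattern can only mean likeness of level in each. The 3 genes nearest to Mir153 in log2(CPM + 1) over the libraries were Mir22 (2059 ± 49.2 CPM), Mir379 and Mir188. For Mir7b they were Mir425, Mir434 and Mir125b-2. For Mir128-1 they were Mir363 (741 ± 146 CPM), Mir370 and Mir341, and the same 3 genes were nearest to Mir7-1. Nearest to Mir128-2 were Mir300, Mir219a-1 and Mir210, and nearest to Mir7-2 were Mir302d, Mir770 and Mir1251.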

How the data were processed

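Small RNA, limited to under 30 nucleotides per the labels, was sequenced from 2 forebrain libraries. The deposited tables hold whole-number read counts per microRNA gene, 1 table per library, not pooled, with 3 columns (either strand, own strand, opposite strand). The build mm10 and annotation GENCODE M4 are named in the read-me texts deposited with them. Not given in the sources used here are the aligner and the counting tool. The 4 summary rows stayed out of gene totals and tests: in replicate 2 and replicate 1 they held 15.0% and 16.7% unmapped, 43.9% and 40.6% multi-mapped, 3.71% and 3.99% unassigned and 0 ambiguous reads. Names and positions are from GENCODE M21 on the same build (1894 of 1973 identifiers matched), and sequences from RefSeq GRCm38.p6, which holds all 6 genes. Arms were matched to annotated hairpins and transcripts, not to the genome. The RefSeq hairpins and arms of 1 chromosome were left out of these searches.

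Computed here were CPM, shares with 95% Wilson or exact Clopper-Pearson intervals, and log2 ratios with TMM sizes (edgeR 4.0.16, R 4.3.3, prior count 0.5). The exact binomial test took genes whose 2 counts summed to 10 or more. It was tested on simulated data with counting error only, which cannot show how it behaves where libraries differ beyond that. Benjamini-Hochberg adjusted p under 0.05 counted as passed. Detection required 10 counts or more in replicate 2 and in replicate 1. Tests used SciPy 1.17.1. Alternatives included DESeq2 1.42.0 size factors. PCR copies carry no molecular identifiers, so every interval and limit describes counting error alone. A count of 0 would allow up to 3 counts, 0.767 CPM in replicate 2 and 0.729 CPM in replicate 1.

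The members and the 13 lists of cell-type genes were chosen with earlier results of these data known. Named genes were the members and hosts, the 3 genes nearest in level to each and leading genes of the lists. For lists that no result turns on only summed shares are given. Genes named for copied arms or seeds were chosen after their values were seen.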

Additional observations from a re-analysis of the deposited data

How the results depend on the processing

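Relative to all reads in place of gene counts, levels per 1000000 reads came to 772 for Mir153, 583 for Mir7b, 285 for Mir128-1, 264 for Mir7-1, 219.7 for Mir128-2 and 125 for Mir7-2, and the 6 genes held 0.225% of reads. Without Mir153 the share of gene counts was 0.387%. With either-strand counts or TMM-scaled sizes the 6 levels moved by less than the SD between libraries. With TMM, 4 of the 6 genes passed the exact binomial test, where 38.9% of all genes tested passed. With no filter on low counts 4 passed (7.81% of all genes), and with at least 50 counts in each library 4 passed (58.4%). DESeq2 size factors gave 5 of the 6 (38.9% of all genes) and library totals 6 (41.1%). The edgeR exact test that uses the dispersion between these libraries called 0 of the 6, and 1 gene of 475. The ratio of Mir153 changed sign, to -0.063 with library totals and -0.00104 with DESeq2 size factors, since those scalings set the libraries differently and the ratio is near 0. Mir7b passed at -0.15 and -0.09 under the same scalings. Leaving out 1 library leaves the value of the other, which for the share of gene counts was 0.540% or 0.640% and for the share of Mir128-2 43.1% or 43.8%. All 6 genes stayed detected with floors of 1 and 100 counts. All 18 pairs of a member and a nearest gene were the same with a pseudocount of 10. No paired analysis was possible because the study has a single group. The depth gives each gene at least 1105 counts in each library, so precision is limited by the number of libraries. Multi-mapped reads stand in a summary row and not under a gene, but the counting tool is not given. How many shared guide reads went uncounted in this way is therefore not known. Any left uncounted would make the levels of the copied genes too low.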

Other observations

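The miR-7 seed has partners in brain that can be read from the annotation, although the tables do not measure them. The letters GTCTTCC, which pair with bases 2 to 8 of miR-7a-5p and miR-7b-5p, were searched on both strands of the Cdr1 transcript of 1554 bases (GENCODE M21, chromosome X). They occurred 0 times on the strand of Cdr1 and 79 times on the opposite strand, from which the circular RNA Cdr1as is made. In the first 1554 bases of 52758 other annotated transcripts, 30.9% held the letters at least once on either strand, and none held them as often.

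The long noncoding RNA Cyrano, annotated as 1700020I14Rik, is known in mouse brain for directing the breakdown of miR-7. Its transcript holds the seed match, in capitals, with further pairing before it, and is shown because the paired stretch covers most of the miR-7 guide printed above.
1700020I14Rik site: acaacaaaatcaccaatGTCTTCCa
All 12 bases compared beyond the seed, those from base 12 of miR-7a-5p to its end, were complementary. The site shown is the best found over all seed matches in the annotated transcripts of this gene. The gap between the seed match and the further pairing was allowed to vary in that search. A match of letters is a description of sequence, and whether the site acts on miR-7 at embryonic day 13.5 was not tested.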
